A study of Mus musculus with 6 samples.

Results

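The clustered histone genes of the mouse were examined as 58 of the 55401 Ensembl genes in the deposited table. They were taken by name, as the genes whose symbol is that of a histone in one of the Hist clusters, and by type they comprised 18 H2A, 15 H2B, 12 H4, 7 H3 and 6 H1 genes. Of these, 45 lay on chromosome 13, where 44 fell between positions 21716422 and 23934851. A further 10 lay on chromosome 3 between 96219865 and 96279001, and 3 lay on chromosome 11 between 58948920 and 58956830. Coordinates are those of the deposited table, and all 58 overlapped their RefSeq gene in GRCm38.p6. RNA was measured by RNA-seq in 6 libraries, 3 from untreated control cultures and 3 from cultures treated with 1 μM metformin, a biguanide drug for type 2 diabetes, for 24 h. All cultures were of C57BL/6 cells that the labels call female germline stem cells (FGSCs), at high passage on mitotically inactivated STO feeder cells, a mouse fibroblast line. Levels are FPKM, that is fragments scaled by the length of the gene and the depth of the library, so that genes of different length can be set side by side.

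Core histones H2A, H2B, H3 and H4 form the octamer around which DNA is wrapped, and H1 binds the linker DNA between nucleosomes. Most clustered histone genes lack introns and are expressed in S phase, when new DNA has to be packed. Their mRNAs typically end in a conserved stem-loop, bound by the protein SLBP, in place of a poly(A) tail, whereas replacement histones such as H3.3 and H2A.Z are made from polyadenylated mRNAs throughout the cell cycle. The libraries were made with kits for mRNA, which as a class take up RNA by its poly(A) tail, and values for transcripts without a tail are therefore not measures of how much of that RNA the cells held. In bulk cultures, fewer cells of a type and less RNA per cell cannot be told apart.

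The stem-loop was present in the annotation for most of the genes. A 6-base stem arm GGNNNT, a 4-base loop TNTN and the pairing arm ANNNCC, in that order and with every base of the arms paired, were searched on the sense strand after the stop codon, and were found in 38 of 55 clustered genes with a protein-coding transcript in GENCODE M1. Over all 22754 genes of that annotation it occurred in 58, of which 20 were not among the genes studied here. It began 21 to 58 bases after the stop codon, with a median of 31. The 38 genes carried 7 different stem-loops, 1 of which served 23 genes and another 6. The following are shown because they belong to abundant members of these libraries, among them the H1 and the H4 gene of highest level, and include the most common stem-loops, which stand in capitals.
Hist1h1c: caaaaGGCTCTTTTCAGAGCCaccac
Hist1h4i: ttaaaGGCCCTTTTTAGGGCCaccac
Hist1h4n: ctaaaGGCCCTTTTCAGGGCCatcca
Hist1h4d: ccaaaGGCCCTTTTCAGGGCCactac
Hist1h2ae: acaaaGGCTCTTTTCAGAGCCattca
Hist1h2bg: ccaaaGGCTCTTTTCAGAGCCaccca
Of the 17 transcripts without a match, 8 ended within 20 bases of the stop codon, so that the annotated sequence was too short to hold it, and 9 went on for longer. Among these 9, Hist2h2be, the most abundant H2B gene here, had 2192 annotated bases after the stop codon with no match.

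Promoter sequence was available from RefSeq (GRCm38.p6) for 51 of the 58 genes, as 250 bases before to 50 after the start. The octamer ATTTGCAT, read on both strands, is the site known for octamer-binding factors in H2B promoters. It was present in 7 of 16 H2A and 5 of 12 H2B promoters and in none of the 6 H1, 6 H3 and 11 H4 promoters, against 1.75% of all 27025 promoters. CCAAT was found in 43 of 51 promoters against 37.9% of all, with 3 of 11 among the H4 genes, and TATAAA in 31 of 51 against 14.2%. H2A and H2B genes often stand head to head, and 3 such pairs had the same octamer in both promoter windows. The pairs are shown from the H2B gene's side, with the octamer in capitals, beginning with the pair whose members both had fragments in every library.
Hist1h2bg and Hist1h2ae, chr13:23571330-23571359, plus strand: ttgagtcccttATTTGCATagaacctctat
Hist1h2bk and Hist1h2ah, chr13:22035780-22035809, plus strand: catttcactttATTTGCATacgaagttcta
Hist1h2ba and Hist1h2aa, chr13:23934302-23934331, minus strand: gaattccccttATTTGCATgcacccagcac
Hist1h2bg had a mean of 0.412 FPKM and its partner Hist1h2ae 0.462 FPKM. In the second pair Hist1h2bk had 0.303 and Hist1h2ah 0.122 FPKM, and both testis histone genes of the third pair, Hist1h2ba and Hist1h2aa, were at 0 in all 6 libraries. The octamer stretch of Hist2h2ac (chr3:96221062-96221091) also lay before the start of its neighbour Hist2h2be at 96221119. That of Hist1h2ac (chr13:23684071-23684100) lay before the start of Hist1h2bc at 23684199. Neither H2B gene had a match counted for a window of its own, so they are not among the pairs shown. A match is a description of the letters and not a measured binding site.

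The libraries held between 13400000 and 14040000 mapped fragments, as read from the step that 1 fragment makes in short single-exon genes. No 2 libraries agreed in more than 1.48% of their values, so none was a copy of another. The study states in general that its experiments were done at least 3 times, and it calls the libraries of a group repeats. No source says that these libraries came from separate cultures, and p-values measure the spread between them, which may be technical. Of 11 germ cell markers, 10 had a mean under 1 FPKM. Dazl was at 0 in every library, Ddx4 reached at most 0.05 FPKM, and Zbtb16 was highest at 1.09 FPKM. Among 12 blood and mast cell genes, 8 had at least 1 FPKM, led by Cpa3 with 352, Gata2 with 267 and Coro1a with 139 FPKM. The other 4 were Ms4a2 with 0.897, Mcpt8 with 0.808 and Cd33 with 0.1 FPKM, and Fcer1a at 0 in every library. Of 15 fibroblast genes, S100a4 had 47.6 FPKM and the other 14 were under 1 FPKM, the highest being Fn1 with 0.275 and Dcn with 0.270 FPKM. Most listed markers of the germ cells named in the label were thus at or near 0 in these libraries. The study itself reported germ cell markers, Dazl and Ddx4 (Mvh) among them, by RT-PCR, and MVH by immunofluorescence, in its cultured FGSCs. The part of the other cell types in the histone values was not tested. With a mean of at least 1 FPKM, 10661 genes were tested by limma, and 3 (0.0281%) passed an adjusted p of 0.05, all higher with metformin and none a clustered histone gene.

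Clustered histone genes were near the limit of detection. Only 3 of the 58 (5.17%) averaged 1 FPKM or more, against 19.2% of all genes in the table. A further 32 lay between 0.1 and 1 FPKM, and 12 were above 0 but under 0.1 FPKM. The remaining 11 (19.0%) were at 0 in all 6 libraries, against 58.8% of all genes in the table. The level was above 0 in every library for 18 genes. Together the 58 genes summed to 13.8, 15.3 and 13.9 FPKM in the control libraries and to 15.95, 15.3 and 13.7 FPKM in the metformin libraries. This was 0.00429% to 0.00497% of the summed FPKM of a library. Both groups overlapped in this sum, whose mean was 14.3 ± 0.840 FPKM (SD, n = 3) in control and 14.997 ± 1.15 FPKM (SD, n = 3) in metformin libraries.

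The values corresponded to few fragments. For 50 of the 58 genes the FPKM values gave back whole numbers of fragments within 0.2 of a fragment, 1034 in all over the 6 libraries. Of these 50, 40 were above 0 in at least 1 library, and the rest, at 0 throughout, were whole by definition. Over all 50, those at 0 included, the median was 1 fragment per library. Of the 50, 24 never had more than 3 fragments in a library, and 5 had more than 3 in every library. In these fragments the variance within groups was 1.14 times that of counting alone (chi-square over 150 degrees of freedom). At the genes' median length of 579 bp, 3 fragments correspond to 0.375 FPKM. A typical member's values therefore rested on so few fragments that counting error was large beside them. Intervals on fragments given here are exact 95% Poisson intervals and cover counting error only.

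Counting of near-identical copies adds to this limit. Over the 55 genes with a transcript, a median of 43.6% of all 50-base words also occurred in another gene's transcript. In 19 genes it was more than 50%, and in 6, Hist2h2be among them, no word was shared. Hist1h1c shared 8.54% and Hist1h4i 40.2%, while Hist1h4k shared 71.5%, Hist1h4n 85.6% and Hist1h2af 79.7%. How reads with several matches were counted is not given in the sources used here. Values of single members with much shared sequence are therefore uncertain. Sums by type depend less on how such reads were divided among copies, but would be too low as well if such reads were left out. In addition, 11 genes without a symbol in the table lay at RefSeq histone genes by position, none with a mean of 1 FPKM or more. The highest was H3c10 with 0.965 FPKM.

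**Figure D1:**
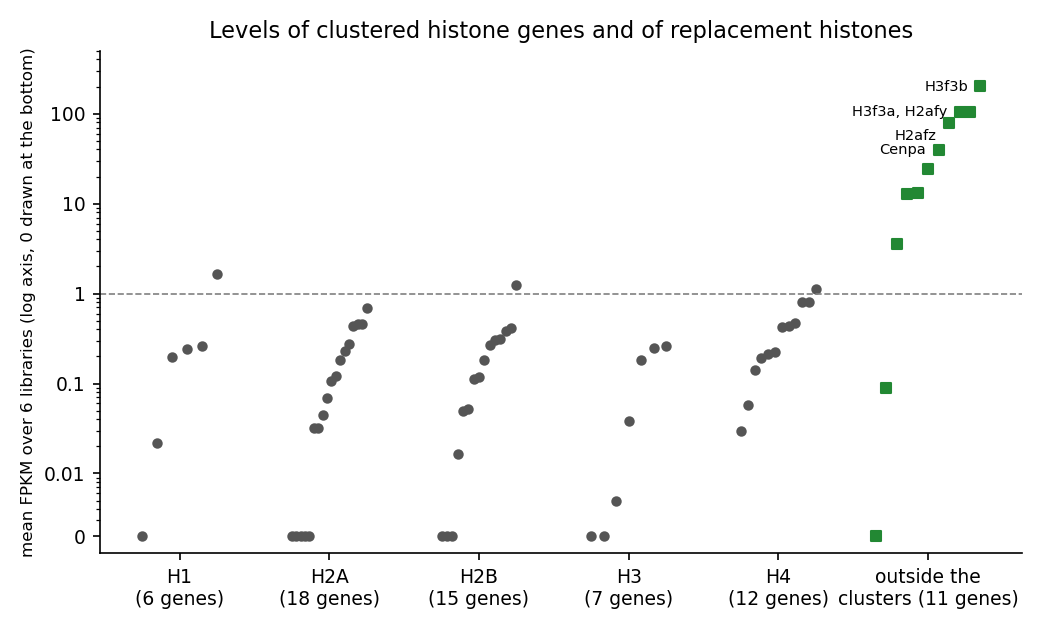
Mean FPKM over 6 libraries on a log axis for the 58 clustered histone genes by type (dots) and for 11 replacement histones (squares), with a mean of 0 drawn at the bottom and a dashed line at 1 FPKM. Of the clustered genes 3 lie above the line, against 9 of the 11 replacement histones.

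Replacement histones, which lie outside the clusters and are mostly made from polyadenylated mRNA, were as a group far more abundant in the same libraries. Of 11 found in the table, 9 averaged 1 FPKM or more. The H3.3 gene H3f3b had 197.8, 202.1 and 203.9 FPKM in the control and 197.3, 201.6 and 203.6 FPKM in the metformin libraries, which was 13.7 times the sum of all 58 clustered genes. The second H3.3 gene, H3f3a, had 105 FPKM, and H2afy, which encodes the macroH2A found on the inactive X chromosome, 104 FPKM. H2afz, the gene of H2A.Z, had 78.3 FPKM, 5.35 times the sum of the clustered genes. Cenpa, the centromeric H3, had 39.2 FPKM, 2.67 times that sum. Type against type, the H3.3 genes exceeded the summed clustered H3 genes 422-fold (272-fold to 916-fold between libraries), and the 6 H2A variants exceeded the clustered H2A genes 74.1-fold (66.4-fold to 83.8-fold). With the genes placed by position included, the ratio for H3 fell to 104-fold (84.7-fold to 156-fold), and that for H2A was 60.5-fold (51.4-fold to 75.7-fold). Against the sum of all clustered genes with these included, H3f3b stood at 10.9 times, H2afz at 4.26 times and Cenpa at 2.13 times.

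Genes that handle histone mRNA and histone proteins were also well represented. Slbp, whose product binds the stem-loop and which was chosen for that role, had 38.1 to 39.7 FPKM over the 6 libraries. Among the other genes of histone mRNA processing the highest were Srrt with 76.1, the cap-binding Ncbp1 with 58.0 and Ncbp2 with 40.5 FPKM. Among histone chaperones, which carry histones to DNA, Rbbp7 had 175, Ssrp1 143 and Anp32e 131 FPKM. Genes of DNA replication, which is active in the phase when clustered histone genes are used, had high levels as well, with Mcm3 at 173, Pcna at 166 and Mcm6 at 115 FPKM, and all 31 of the list had at least 1 FPKM. Other RNAs known to lack a poly(A) tail, such as small nucleolar RNAs, were at mixed levels. Of 20 listed, 9 were in the table, of which 4 were at 0 in every library. The 3 that reached 1 FPKM were Snord17 with 3.30, Scarna13 with 1.88 and Snora23 with 1.57 FPKM. Snord17 and Scarna13 thus lay above Hist1h1c, the highest clustered gene, at 1.66 FPKM. Over all genes in the table, 19.2% averaged 1 FPKM or more. Whether the lack of a tail sets the level of the clustered genes in these libraries was not tested.

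Much of the signal lay in the 3 genes above 1 FPKM. Hist1h1c, Hist2h2be and Hist1h4i held 27.6% of the summed FPKM and 53.8% of the recovered fragments. Hist1h1c (ENSMUSG00000036181, H1f2 in RefSeq) lies on the plus strand of chromosome 13 at 23738808 to 23740367 and encodes a linker histone found in most somatic cells. It had 1.77, 1.95 and 2.06 FPKM in the control and 1.51, 1.42 and 1.25 FPKM in the metformin libraries. All metformin libraries lay below all control libraries, with 124 fragments (103 to 148) in the control and 91 (73.3 to 112) in the metformin group. The log2 difference, on the scale of log2(FPKM + 1) and as metformin minus control, was -0.29 with a standard error of 0.08. In limma this had an unadjusted p of 0.00835 and, after Benjamini-Hochberg adjustment over all genes tested, an adjusted p of 0.348.

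Hist2h2be (ENSMUSG00000068854, H2bc21) lies on the plus strand of chromosome 3 at 96221119 to 96223738 and encodes an H2B known from olfactory neurons. Its control libraries had 1.17, 1.44 and 1.17 FPKM and its metformin libraries 1.06, 1.34 and 1.35 FPKM. Both groups overlapped, with 136 and 137 fragments. The log2 difference was -0.01 with a standard error of 0.10 (limma, Benjamini-Hochberg adjusted p = 0.991), and its sign turned when either control replicate 2 (0.05) or metformin replicate 1 (0.06) was left out.

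Hist1h4i (ENSMUSG00000060639, H4c9), an H4 gene on the minus strand of chromosome 13 at 22040636 to 22041362, lay on the other side. It had 0.92, 0.90 and 0.59 FPKM in the control and 1.37, 1.57 and 1.40 FPKM in the metformin libraries. All metformin libraries lay above all control libraries, with 24 fragments (15.4 to 35.7) against 44 (32.0 to 59.1). The log2 difference was 0.44 with a standard error of 0.11, an unadjusted p of 0.00371 in limma and a Benjamini-Hochberg adjusted p of 0.321. With a control mean of 0.803 ± 0.185 FPKM (SD, n = 3) it reached the filter of 1 FPKM only through the metformin group, where it had 1.45 ± 0.108 FPKM (SD, n = 3), so that its direction among the genes tested carries no weight. For Hist1h1c, Hist1h4i and each other member whose groups did not overlap, the exact permutation p was 0.1, the smallest that 3 libraries against 3 allow.

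**Figure D2:**
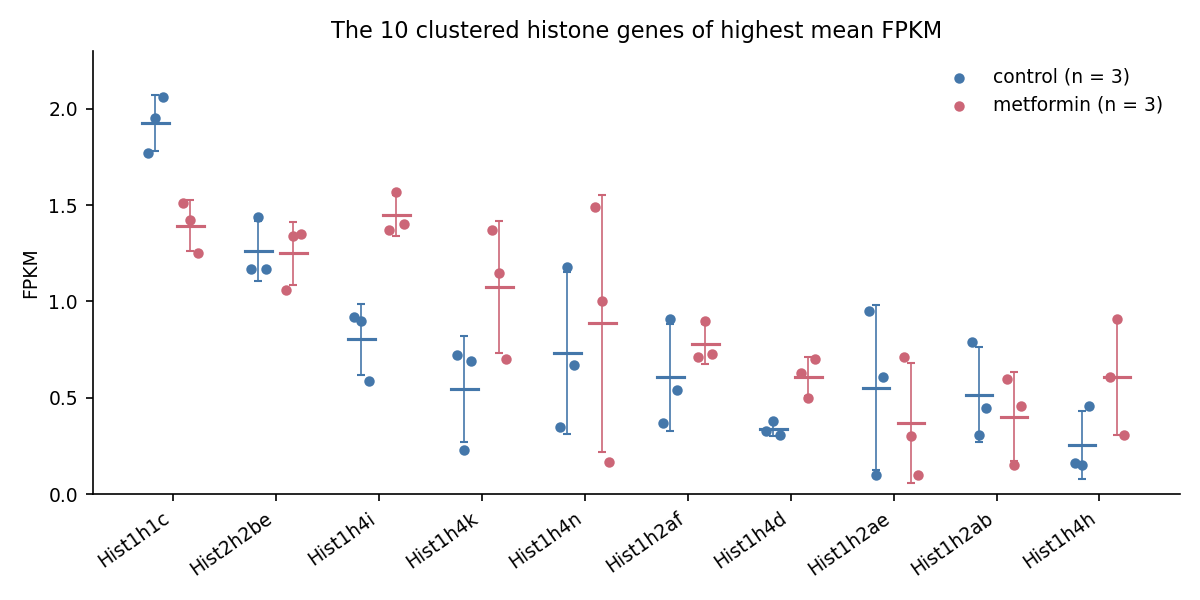
FPKM in each library (points) with group means and SD (bars, n = 3) for the 10 clustered histone genes of highest mean. Control and metformin do not overlap for Hist1h1c (lower), Hist1h4i and Hist1h4d (higher), and overlap for the other 7.

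Next in level were 2 H4 genes, each with a mean of 0.810 FPKM. Hist1h4k had 0.72, 0.23 and 0.69 FPKM in the control and 1.37, 1.15 and 0.70 FPKM in the metformin libraries. Hist1h4n ranged more widely, with 0.35, 1.18 and 0.67 against 1.49, 1.00 and 0.17 FPKM. Both overlapped between groups, and in Hist1h4n a single library held between 1 and 9 fragments. In limma without a filter on low values, the log2 difference was 0.43 with a standard error of 0.19 for Hist1h4k (Benjamini-Hochberg adjusted p = 0.693) and 0.08 with a standard error of 0.32 for Hist1h4n (adjusted p = 0.953).

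The most abundant H2A genes showed as much spread. Hist1h2af had 0.37, 0.91 and 0.54 FPKM in the control and 0.71, 0.90 and 0.73 FPKM in the metformin libraries. Hist1h2ae had 0.95, 0.10 and 0.61 against 0.71, 0.30 and 0.10 FPKM. Hist1h2ab had 0.79, 0.31 and 0.45 against 0.60, 0.15 and 0.46 FPKM. In each of the 3 the groups overlapped and the difference of the means was smaller than the larger SD. Their log2 differences, from the same fit, were 0.16 with a standard error of 0.14 for Hist1h2af (limma, Benjamini-Hochberg adjusted p = 0.795), -0.17 with 0.26 for Hist1h2ae (adjusted p = 0.877) and -0.11 with 0.17 for Hist1h2ab (adjusted p = 0.865). Of the H4 genes, Hist1h4h had 0.16, 0.15 and 0.46 against 0.61, 0.91 and 0.31 FPKM and overlapped too (log2 difference 0.35, standard error 0.17, limma without a filter, Benjamini-Hochberg adjusted p = 0.704). Hist1h4d had 0.33, 0.38 and 0.31 FPKM in the control and 0.63, 0.50 and 0.70 FPKM in the metformin libraries, 16 fragments (9.15 to 26.0) against 29 (19.4 to 41.7), and did not overlap. Its log2 difference was 0.26 with a standard error of 0.07 (limma without a filter, Benjamini-Hochberg adjusted p = 0.482).

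Without a filter on low values, so that all 47 clustered genes above 0 in any library could be read, none passed an adjusted p of 0.05 in limma, against 0.0307% of all genes so tested, and adjusted p-values ran from 0.463 to 1. At an unadjusted p under 0.05 there were 7 of 47 (14.9%), against 7.21% of all 22809 genes so tested. The 4 on the higher side with metformin (background 3.92%) were Hist1h4i, Hist1h4d, Hist1h1b and Hist1h2ag, and the 3 on the lower side (background 3.29%) were Hist1h2ai, Hist1h1c and Hist1h1a. Groups did not overlap for 6 of the 47 (12.8%), against 10.3% of all genes above 0. Of these 6, 3 were higher (background 5.35%) and 3 lower (background 4.98%). Of the 47, 21 were higher, 25 lower and 1 equal in both groups, with a median log2 difference of 0.00, and the median over all genes was 0.00.

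Among the genes under 1 FPKM with the smallest p-values, single fragments decided the values. Hist1h2ai, an H2A gene, had 0.57, 0.74 and 0.73 FPKM in the control and 0, 0.18 and 0.37 FPKM in the metformin libraries. These were 11 fragments (5.49 to 19.7) against 3 (0.619 to 8.77), and the log2 difference was -0.52 with a standard error of 0.12 (limma without a filter, Benjamini-Hochberg adjusted p = 0.470). Hist1h1b, a linker histone gene, had 0.10, 0.10 and 0.19 against 0.29, 0.48 and 0.29 FPKM, with 4 fragments (1.09 to 10.2) against 11 (5.49 to 19.7). Its log2 difference was 0.26 with a standard error of 0.07 (limma, Benjamini-Hochberg adjusted p = 0.517). Hist1h1a, another linker histone gene, had 0.20, 0.49 and 0.29 against 0, 0.19 and 0 FPKM, with 10 fragments (4.80 to 18.4) against 2 (0.242 to 7.23), and a log2 difference of -0.32 with a standard error of 0.11 (limma, Benjamini-Hochberg adjusted p = 0.612). In these 3 genes the fragment intervals of both groups overlapped, and Hist1h1a and Hist1h1b, both of type H1, lay on opposite sides.

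H2B was examined gene by gene because the study followed a modification of a lysine of this histone. All 15 H2B genes were low, among them Hist3h2bb-ps, a pseudogene by its symbol. Hist2h2be held 36.2% of the summed FPKM of the 15. Whole fragments could be recovered for 9 of the 15, and over these 9 Hist2h2be held 273 of 332 fragments (82.2%). After its mean of 1.255 FPKM came Hist1h2bg with a mean of 0.412, Hist1h2be with 0.383, Hist1h2bj with 0.312, Hist1h2bk with 0.303 and Hist1h2bc with 0.270 FPKM. Below these were Hist1h2bf with 0.183, Hist1h2bb with 0.118, Hist2h2bb with 0.112, Hist3h2bb-ps with 0.0517, Hist1h2bq with 0.05 and Hist1h2bp with 0.0167 FPKM. Hist1h2ba, Hist3h2ba and Hist1h2br were at 0 in every library. Neighbours in this order below Hist2h2be did not differ beyond the spread of their libraries, as in Hist1h2bg, where 1 metformin library had 1.06 FPKM and the other 5 libraries 0.12 to 0.46 FPKM. The annotated spans of Hist1h2be and the H1 gene Hist1h1e overlap in part on the same strand, and how fragments from the shared stretch were assigned is not given in the sources used here.

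Neither Hist2h2be nor the other H2B genes separated the groups. The 15 genes summed to 3.03, 3.87 and 3.44 FPKM in the control and to 3.08, 3.23 and 4.15 FPKM in the metformin libraries, or 3.45 ± 0.420 and 3.49 ± 0.579 FPKM (SD, n = 3). Without Hist2h2be the remaining 14 genes had 2.19 ± 0.294 and 2.24 ± 0.492 FPKM (SD, n = 3). Fragments recovered for 9 of the 15 genes were 165 (141 to 192) in the control and 167 (143 to 194) in the metformin group. None of the 15 genes had an unadjusted p under 0.05 in limma without a filter.

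**Figure D3:**
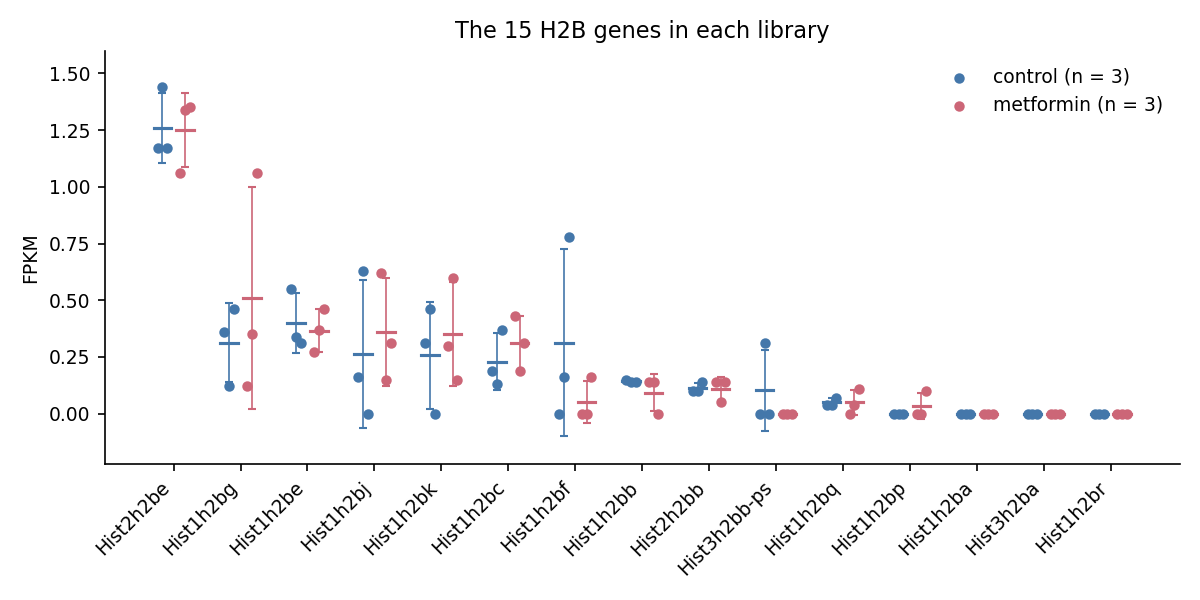
FPKM of the 15 H2B genes in each library (points), with group means and SD (bars, n = 3, also where they reach below 0). Hist2h2be stands at 1.06 to 1.44 FPKM in every library, all other values but 1 (Hist1h2bg, 1.06) are below 1 FPKM, and the groups overlap for each gene.

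By type, the H4 genes had the highest sum. They had 4.08, 4.53 and 3.79 FPKM in the control and 6.58, 6.28 and 4.36 FPKM in the metformin libraries. Metformin replicate 3 lay within the range of the control libraries, and the other 2 metformin libraries lay above it. Means were 4.13 ± 0.373 and 5.74 ± 1.20 FPKM (SD, n = 3), with 99 fragments (80.5 to 121) in the control and 143 (121 to 168) in the metformin group, a ratio of 1.44. Without Hist1h4i the H4 sums were 3.33 ± 0.261 and 4.29 ± 1.18 FPKM (SD, n = 3), and metformin replicate 3, at 2.96 FPKM, was then lower than each control library. All 12 H4 genes were above 0 in at least 1 library, 7 of them higher and 5 lower with metformin.

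In the summed FPKM of H1 and, narrowly, of H3 all metformin libraries were below all control libraries. Among single genes above 0 in any library, groups did not overlap in 10.3%. The 6 H1 genes summed to 2.48, 2.73 and 2.78 FPKM in the control and to 2.18, 2.26 and 1.83 FPKM in the metformin libraries, 2.66 ± 0.161 against 2.09 ± 0.229 FPKM (SD, n = 3). Most of this difference was in Hist1h1c. Without it the other 5 genes had 0.737 ± 0.0379 and 0.697 ± 0.132 FPKM (SD, n = 3), and the groups overlapped. Hist1h1t, the H1 of the testis, was at 0 in all 6 libraries, where 3 fragments would have given 0.238 FPKM.

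The 7 H3 genes named in the table had the lowest sum, with 0.770, 1.16 and 0.830 FPKM in the control and 0.560, 0.740 and 0.340 FPKM in the metformin libraries. Groups did not overlap in FPKM, but narrowly, with control replicate 1 at 0.770 and metformin replicate 2 at 0.740 FPKM. Recovered fragments, from 6 of the genes, were 7, 10 and 8 against 6, 7 and 3, so both groups had a library at 7. Added up, these were 25 fragments (16.2 to 36.9) against 16 (9.15 to 26.0). With the 4 H3 genes placed by position, the sums were 3.30 ± 0.396 and 2.64 ± 0.592 FPKM (SD, n = 3), the groups overlapped, and H1 in place of H3 had the lowest sum. H2A sums were 3.14 ± 0.219 and 3.13 ± 0.379 FPKM (SD, n = 3) over 18 genes, 5 of which were at 0 throughout.

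**Figure D4:**
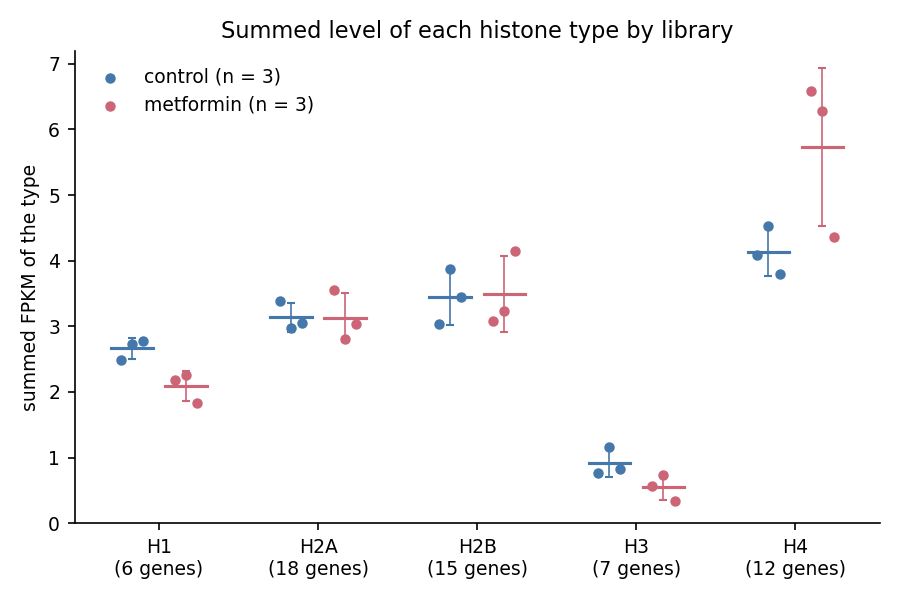
Summed FPKM of the clustered genes of each histone type in each library (points), with group means and SD (bars, n = 3). H4 is highest with 2 metformin libraries above 6 FPKM and 1 at 4.36. H1 and, by a narrow gap, H3 are lower in all metformin libraries, and H2A and H2B overlap.

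Transcript ends varied among the members with a stem-loop. In 15 of the 38 the annotated transcript went on for more than 100 bases past the stem-loop, and 13 of these 15 held AATAAA or ATTAAA, the usual poly(A) signals, in that stretch (sense strand only). In the 23 that ended sooner, 1 did. Hist1h1c went on for 839 bases and Hist1h4i for 150, both with such a signal, and these are the only members with a stem-loop that averaged 1 FPKM or more. The 15 longer transcripts had a median of 0.223 FPKM, within 0 to 1.66, and the 23 shorter ones a median of 0.195 FPKM, within 0 to 0.810. Hist1h2ac had 2010 bases past its stem-loop and 0.0450 FPKM. Hist1h2ai, whose deposited span of 393 bp is shorter than its annotated transcript of 1041 bases, is the only 1 of the 15 whose span fell short of the transcript by at least 100 bases. In some genes the deposited span was longer than the annotated transcript. Hist1h4d had 1138 bp against 393 bases, Hist1h1e 1930 against 748 and Hist1h4i 727 against 537. For such genes the counted gene and the annotated transcript end need not match. Recovered fragments, which are not scaled by length, were 396 over 12 of the longer and 278 over 22 of the shorter transcripts. Of the 396, 215 were in Hist1h1c. Summed FPKM was 5.12 over the 15 longer and 5.34 over the 23 shorter transcripts. Whether the transcript end bears on the level was not tested.

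**Figure D5:**
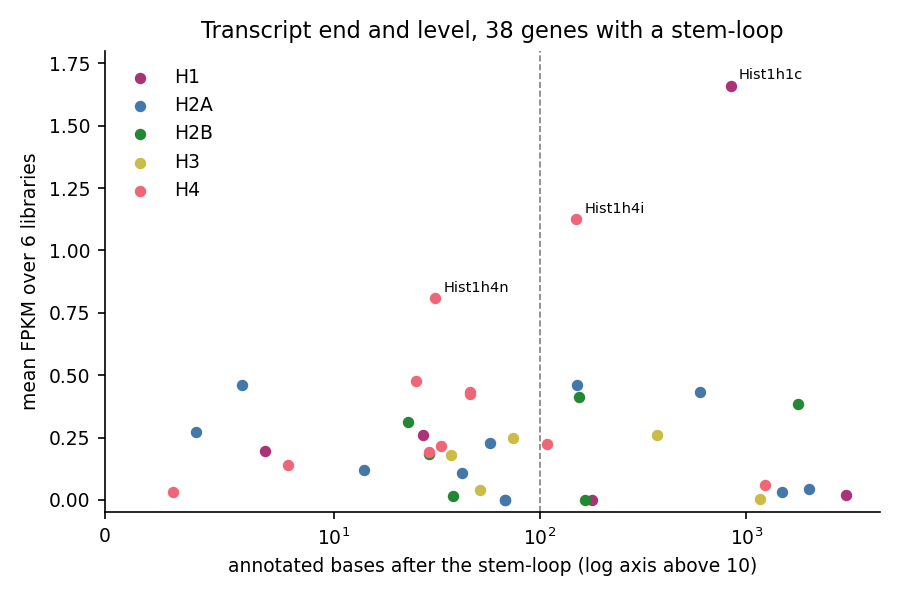
Mean FPKM over 6 libraries against the number of annotated bases after the stem-loop (log axis above 10) for 38 clustered histone genes, coloured by type, with a dashed line at 100 bases. Hist1h1c and Hist1h4i, to the right of the line, are the only points above 1 FPKM, and most points on both sides lie below 0.5 FPKM.

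Genes around the histone pathway did not pass the test either, and no list had a member with an adjusted p under 0.05 in limma with Benjamini-Hochberg adjustment. Of the 9 replacement histones tested, 4 were higher and 5 lower with metformin, with a median log2 difference of 0.00. The smallest p was that of H2afv, a second H2A.Z gene, which had 12.8, 12.4 and 12.4 FPKM in the control and 13.5, 13.6 and 14.6 FPKM in the metformin libraries (log2 difference 0.14, limma adjusted p = 0.350). In the sum of the 11, the groups had 580 ± 7.64 and 582 ± 1.63 FPKM (SD, n = 3). Of 20 tested genes of histone mRNA processing and decay, 7 were higher and 13 lower (median -0.01), led by Ncbp2 (-0.09, limma adjusted p = 0.346) and on the higher side by E2f1 (0.16, limma adjusted p = 0.563). Of 23 histone chaperones, 10 were higher and 13 lower (median -0.01), with Asf1a at -0.16 (limma adjusted p = 0.377) and Ssrp1 at 0.04 (limma adjusted p = 0.492). Of 31 S phase genes, 14 were higher and 17 lower (median -0.01), among them Gins2 at 0.18 (limma adjusted p = 0.320) and Rfc4 at -0.14 (limma adjusted p = 0.301). The median over all 10661 genes was 0.00.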

How the data were processed

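The authors deposited 1 table of FPKM values per gene and library, which already include their mapping, counting and scaling by length and depth. Per the labels, the submitters' processing notes name HISAT2, DESeq2 and mm9 without roles or versions, whereas the table's gene positions are those of GRCm38. The counter and the treatment of strand and of multiply matching reads are not given in the sources used here. The labels and the study's methods name different mRNA library kits. Symbols were matched by Ensembl identifier (32589 of 55401 genes).

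Values were tested as log2(FPKM + 1) in genes averaging 1 FPKM or more by limma 3.58.1 (R 4.3.3; lmFit, eBayes with trend, two-sided, Benjamini-Hochberg, threshold 0.05), without a replicate block. On this scale, differences of low genes are understated. FPKM values are not counts, so no count test was made. Fragments were recovered from the step of 1 fragment in single-exon genes under 400 bp, where all values used were whole within 0.1, and served for description. Stem-loops and shared words came from GENCODE M1 transcripts, promoters from RefSeq. The fit was tested on simulated data. Alternatives tried were no filter, a filter at 10 FPKM, a pseudocount of 0.1, rescaling to the same sum, quantile normalization, median centring, no trend, a replicate block and leaving out each library. Statistics were given for the 10 members of highest mean and the 3 of smallest p in each direction. For lists, the 3 genes of highest mean and the smallest p in each direction were named, and further cell type markers were named for their low levels. Members and lists were chosen with earlier results of these data known. Figures were drawn with matplotlib 3.10.9 in Python 3.11.15.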

Additional observations from a re-analysis of the deposited data

How the results depend on the processing

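No clustered histone gene passed the threshold under any alternative that could be run. A filter at a mean of 10 FPKM left none of them and gave no value, and genes under 1 FPKM got no value under quantile normalization, without trend or with the block. Genes called numbered 3, with 7 without a filter and 6 without a filter at a pseudocount of 0.1 (added after seeing the data), and 3 to 4 with single libraries left out. Hist2h2be turned sign without control replicate 2 (0.05) and without metformin replicate 1 (0.06), its leave-one-out range being -0.0395 to 0.0555. The median over the 3 tested members is that of Hist2h2be and had the same range. The adjusted p stayed within 0.336 to 0.558 for Hist1h1c and 0.309 to 0.516 for Hist1h4i. Because the groups of both genes did not overlap, leaving out a library could not turn their direction, and its being unchanged is no support. The size of the log2 differences depended on the pseudocount: at 0.1 it was -0.44 in place of -0.29 for Hist1h1c, 0.80 in place of 0.44 for Hist1h4i, 0.93 in place of 0.43 for Hist1h4k, 0.38 in place of 0.16 for Hist1h2af, 0.68 in place of 0.26 for Hist1h4d and 1.005 in place of 0.35 for Hist1h4h. For the sums by type, metformin minus control ranged with single libraries left out from -0.67 to -0.44 FPKM for H1, -0.22 to 0.16 for H2A, -0.29 to 0.25 for H2B, -0.47 to -0.25 for H3 and 1.19 to 2.297 for H4. H3 moved from -0.37 to -0.66 with genes placed by position (added after seeing the data), and H4 from 1.61 to 0.64 FPKM with members of at least 1 FPKM alone. Equal sums and median centring left each type's difference within 1 SD. At the depth of these libraries, the median over the 50 members with recovered fragments was 1 fragment per library.

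Labels number the replicates in both groups without saying that a number marks a shared culture. Deviations of same-numbered libraries correlated at -0.03, 0.02 and 0.05, so the numbers were not taken as pairs. With the replicate block, 2 genes were called and 0 clustered histone genes, the median over members was -0.01, and adjusted p-values were 0.486 for Hist1h1c, 0.989 for Hist2h2be and 0.465 for Hist1h4i.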
